A study of Homo sapiens with 8 samples.

Results

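The 39 genes described here encode the aminoacyl-tRNA synthetases of human cells and the AIMP1 and AIMP2 scaffold proteins. They were taken from 29937 genes and loci of the combined long-read count table, 20195 of which carried a gene symbol. A gene was a member if its symbol was a letter followed by ARS1 or ARS2, or if it was EPRS1, FARSA, FARSB, AIMP1 or AIMP2, and if the combined assembly named the transcript for that gene. This gave 20 cytosolic synthetases (names ending in 1, with EPRS1, FARSA and FARSB), 17 mitochondrial synthetases (names ending in 2) and 2 scaffold proteins. Reads of 150 assembled transcripts were summed per gene, 103 of which matched a reference transcript, and they held 32569 reads over the 8 libraries.

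An aminoacyl-tRNA synthetase attaches an amino acid to the tRNAs that decode it, and the ribosome cannot use a tRNA without this step. Separate nuclear genes serve the cytosol and the mitochondrion for most amino acids, whereas GARS1 and KARS1 each supply both compartments. Several cytosolic enzymes assemble with AIMP1, AIMP2 and EEF1E1 into the multisynthetase complex. When amino acids run short, uncharged tRNA activates the kinase GCN2 and translation of the transcription factor ATF4 increases, and many genes of cytosolic synthetases are among the known targets of ATF4.

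There were 2 libraries per group, all from the established human embryonic stem cell line H1. The undifferentiated group (hPSC) was kept on Matrigel in mTeSR1. Endoderm cells received WNT3A and Activin A in RPMI with FBS. Mesoderm cells received VEGF, BMP4 and bFGF in DMEM/F12, with Activin A for the opening day only. Ectoderm cells received the inhibitors A83-01, PNU-74654 and Dorsomorphin in a medium with KOSR, and the layers were collected on day 5. Polyadenylated RNA was sequenced with the long reads of a PacBio Sequel II instrument, and the libraries held from 503840 to 1180888 reads. The labels do not say that repeats were separate cultures, so p-values measure only the spread between these libraries, and the 3 layers share the same 2 hPSC libraries. In such bulk RNA, fewer cells of a type and less RNA per cell cannot be told apart.

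The labelled layers were checked against marker genes. Of the pluripotency genes, POU5F1 had 372 and 352 reads in hPSC and TDGF1 524 and 626, while SOX2 had 71 and 5. In endoderm TDGF1 still had 452 and 351 reads, NANOG 92 and 65 and LIN28A 489 and 446. POU5F1 had 61 and 69 reads there, SOX2 had 0, and DNMT3B had 52 and 43 against 381 and 364 in hPSC. The summed level of the 6 listed pluripotency genes was 3559 and 3238 CPM (counts scaled to a common library total) in hPSC. It was 1957 and 1662 in endoderm, 1244 and 1626 in ectoderm and 290 and 272 in mesoderm. Of these genes in ectoderm, LIN28A had 1038 and 1238 reads, SOX2 180 and 129 and DNMT3B 241 and 189. POU5F1 had only 5 and 16 reads there, NANOG 3 and 0 and TDGF1 2 and 1. The part of these genes in the results of the layers was not tested. In ectoderm PAX6 had 170 and 79 reads and SIX3 had 133 and 88, while SOX1 had 0 reads in all 8 libraries. LHX5 had 235 and 156 reads in ectoderm and DLK1 468 and 312. OTX2, also on the ectoderm list, had 181 and 130 reads in ectoderm but 241 and 238 in endoderm. In endoderm CER1 had 974 and 1181 reads and FOXA2 only 3 and 4. In mesoderm HAND1 had 263 and 274 reads, TBXT had 1 and 0, and MESP1, MIXL1 and FOXF1 had 0. TBX3 had 132 and 180 reads there, and KDR had 1 and 1 against 57 and 44 in hPSC. All 8 listed genes of amnion or trophoblast had reads in mesoderm, led by GABRP with 2269 and 2355, and their summed level was 5554 and 6052 CPM there against 6.20 to 80.3 in the other libraries. Their part in the mesoderm results was not tested.

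The DNA element through which ATF4 and C/EBP proteins act has the core TGATGNAA, and windows with it are shown because the core is more frequent in promoters of cytosolic members than in the promoter table. RefSeq promoters (GRCh38.p14, 250 bases before to 50 after a start) were matched for 32 of the 39 members by symbol. YARS1, VARS1, VARS2, AARS2 and LARS1 were among those with no match. The core, searched on both strands, stood in the promoter of 7 of 16 matched cytosolic members (43.8%), in 1 of 14 mitochondrial members (7.14%) and in neither scaffold gene. Among all genes of the promoter table it stood in 1217 of 27305 (4.46%), and among the tested genes that matched in 226 of 8294 (2.72%). The windows below run 5′ to 3′ on the strand of the gene, and capitals mark the core, as TGATGNAA or as its reverse complement.
AARS1: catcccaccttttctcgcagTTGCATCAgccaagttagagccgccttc
CARS1: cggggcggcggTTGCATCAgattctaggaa
GARS1: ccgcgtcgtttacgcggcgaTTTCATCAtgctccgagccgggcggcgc
IARS1: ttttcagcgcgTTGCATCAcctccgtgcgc
MARS1: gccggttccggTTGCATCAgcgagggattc
NARS1: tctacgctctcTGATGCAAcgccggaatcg
TARS1: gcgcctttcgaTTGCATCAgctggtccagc
YARS2: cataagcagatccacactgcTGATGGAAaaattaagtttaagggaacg

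These windows lie at chr16:70289666-70289713 for AARS1, chr11:3057407-3057436 for CARS1, chr9:92293692-92293721 for IARS1, chr18:57621804-57621833 for NARS1 and chr12:32756067-32756114 for YARS2, all on the minus strand. On the plus strand lie those of GARS1 at chr7:30594825-30594872, MARS1 at chr12:57488053-57488082 and TARS1 at chr5:33440956-33440985. Counted from the RefSeq start, the core begins at -187 in AARS1, -197 in YARS2, -33 in GARS1, -13 in IARS1, -4 in MARS1, -2 in CARS1, 2 in TARS1 and 14 in NARS1. A match describes these letters only, and binding was not measured.

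Synthetase genes were mostly lower in ectoderm and mesoderm than in hPSC, and less uniformly so in endoderm. Of 38 members tested, 1 rose and 21 fell in ectoderm at an adjusted p under 0.05 (edgeR quasi-likelihood test, Benjamini-Hochberg over 10847 genes), where 23.8% of all tested genes rose and 24.8% fell. In endoderm 2 rose and 9 fell, beside 13.4% and 13.7% of all tested genes. In mesoderm none rose and 20 fell, beside 17% and 18.2% of all tested genes. The median log2 fold change of the members was -0.93 in mesoderm, -1.01 in ectoderm and -0.42 in endoderm, against 0.01, -0.01 and -0.13 over all tested genes. The estimate was negative for 32 of the 38 members in mesoderm, 31 in ectoderm and 27 in endoderm. WARS2, the mitochondrial tryptophan enzyme, had too few reads to be tested, with 6 and 8 in hPSC, 17 and 19 in ectoderm, 6 and 7 in mesoderm and 7 and 2 in endoderm.

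**Figure D1:**
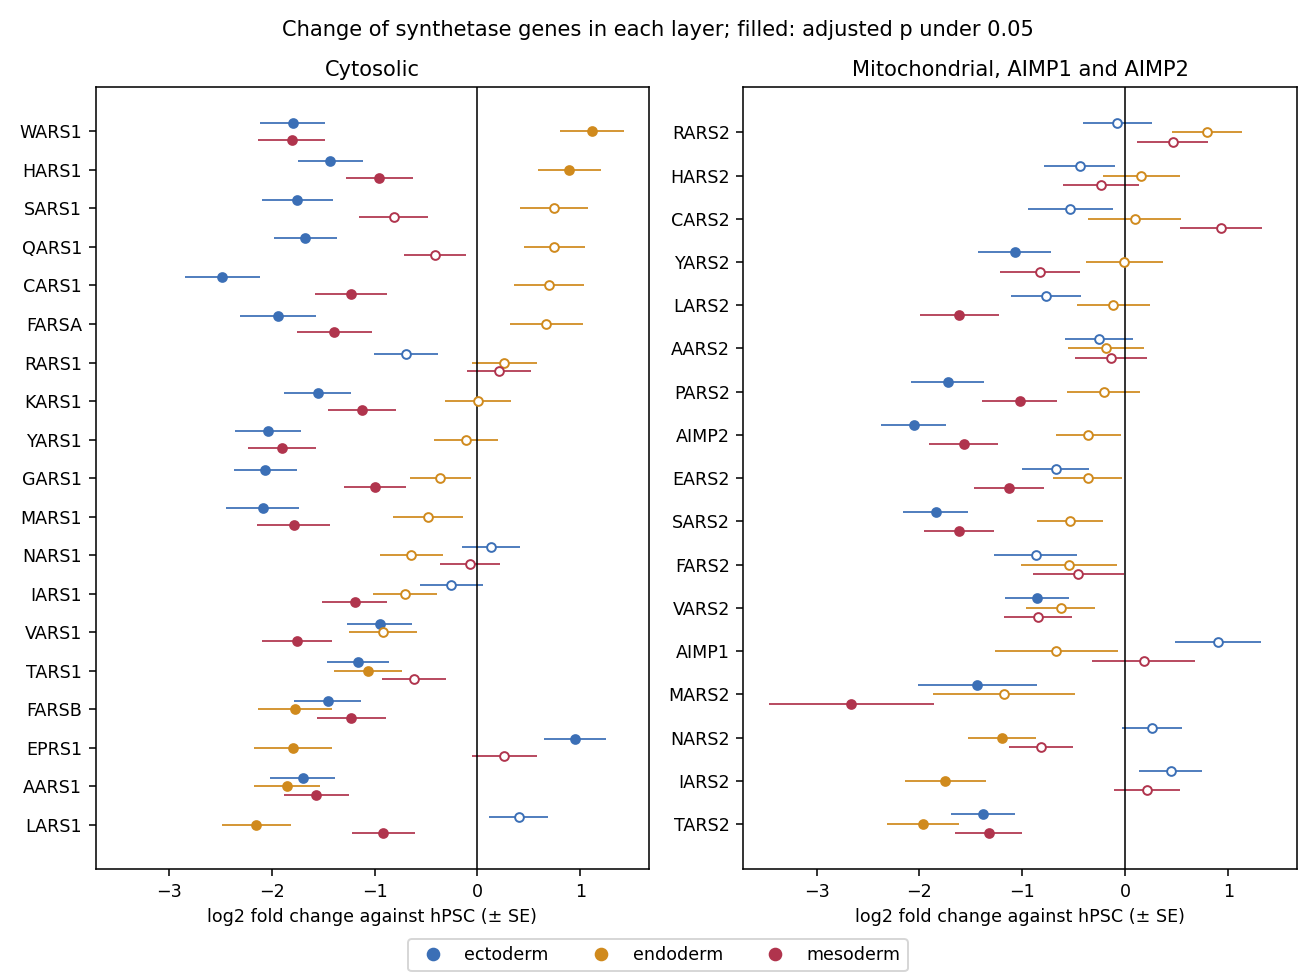
Log2 fold change of tested members against hPSC (x axis, ± SE) for ectoderm, endoderm and mesoderm; filled points passed an adjusted p under 0.05 and open points did not. Most ectoderm and mesoderm points lie left of 0, and WARS1 and HARS1 are filled to the right of 0 in endoderm.

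The counts depend on single libraries and on the scale. Without ectoderm replicate 2, 14 members passed in ectoderm. Without endoderm replicate 1 or 2, 5 and 6 passed in endoderm, and without mesoderm replicate 1 or 2, 6 and 9 passed in mesoderm. In these fits the lone library is assumed to vary like the other groups. With the library total as the scale in place of TMM, the median of all tested genes moved to 0.24 in mesoderm, 0.39 in ectoderm and -0.46 in endoderm. The members then split into 0 higher and 17 lower in mesoderm, 4 and 16 in ectoderm, and 1 and 16 in endoderm. Relative to the median of all tested genes, the members' median in ectoderm was -1.001 by TMM and -1.01 by library total, and in endoderm it was -0.29 and -0.27. The endoderm value moved with the hPSC repeat left out: without hPSC replicate 2, 6 members rose and 10 fell there, the members' median was -0.14 and its distance from all tested genes was -0.056, and without hPSC replicate 1 that distance was -0.57, with 1 higher and 13 lower.

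By class, 1 cytosolic member rose and 14 of 20 fell in ectoderm, against 6 of 16 tested mitochondrial members that fell, beside 24.8% of all tested genes that fell. In endoderm 2 cytosolic members rose and 6 fell, and 3 of 16 mitochondrial members fell, a share near the 13.7% of all tested genes. In mesoderm 13 cytosolic and 6 mitochondrial members fell, beside 18.2% of all tested genes. The median log2 fold change was -1.50 for cytosolic and -0.72 for mitochondrial members in ectoderm, -1.06 and -0.82 in mesoderm, and -0.42 and -0.45 in endoderm. A test of 1 class against the other was not run.

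The mitochondrial share of synthetase reads needs no scaling between libraries. It was 17.2% (95% exact binomial interval 16.0 to 18.4) and 15.9% (14.9 to 16.9) in the hPSC libraries. In ectoderm it was 22.9% (21.9 to 24.0) and 22.6% (21.5 to 23.8), and in mesoderm 21.4% (19.8 to 23.0) and 22.1% (20.4 to 23.8). Both endoderm libraries were below both hPSC libraries, at 13.1% (11.97 to 14.2) and 12.5% (11.4 to 13.6). The intervals cover counting error only. The means were 16.5% ± 0.924 in hPSC, 22.8% ± 0.203 in ectoderm, 21.7% ± 0.489 in mesoderm and 12.8% ± 0.379 in endoderm (SD, n = 2). The libraries of no pair of groups overlapped, although the counting intervals of ectoderm and mesoderm did, and no test was run on the share.

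**Figure D2:**
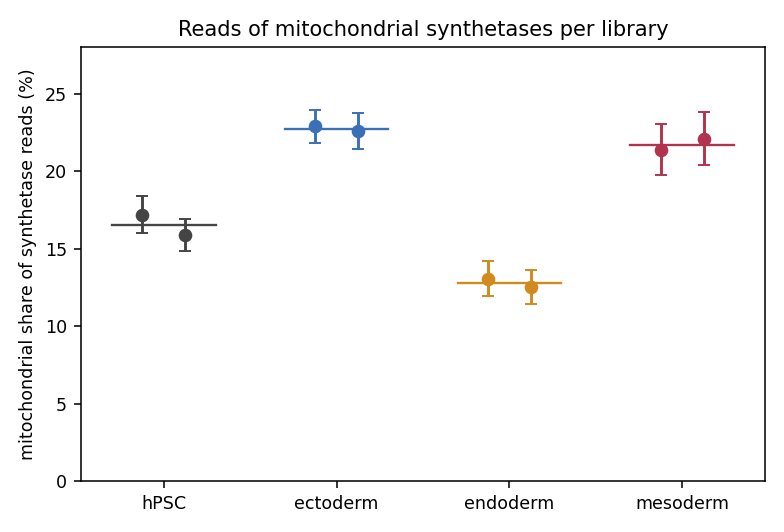
Share of synthetase reads that came from mitochondrial synthetases (y axis, %) in each of the 8 libraries, with 95% exact binomial intervals; horizontal lines are group means. Ectoderm and mesoderm libraries lie above the hPSC libraries and endoderm libraries below them.

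The summed level of cytosolic synthetases was 6877 ± 1041 CPM of the library total in hPSC, 4043 ± 57.4 in ectoderm, 3620 ± 107 in mesoderm and 5326 ± 12.5 in endoderm. For the mitochondrial synthetases it was 1356 ± 115 in hPSC, 1191 ± 30.6 in ectoderm, 1005 ± 0.822 in mesoderm and 781 ± 28.3 in endoderm (SD, n = 2). On the TMM scale the cytosolic sum in endoderm was 7113 ± 304 against 7406 ± 2266 in hPSC, where the 2 repeats stood at 5803 and 9008. The log2 ratio of the endoderm cytosolic sum to hPSC was -0.36 by library total and -0.024 by TMM, whereas the mitochondrial sum was below hPSC on both scales (log2 ratios -0.79 and -0.46).

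The values of single members are given as CPM of the TMM-scaled library size, in the order of replicates 1 and 2. EPRS1 joins the glutamate and proline enzymes in 1 protein of the multisynthetase complex and was the only member that rose in ectoderm. It stood at 100 and 90.5 in hPSC, 182 and 187 in ectoderm, 96.9 and 132 in mesoderm and 22.1 and 32.9 in endoderm. Both ectoderm libraries were above hPSC and both endoderm libraries were below it, while mesoderm overlapped hPSC. The log2 fold change was 0.95 ± 0.30 (SE) in ectoderm (edgeR adjusted p = 0.0171) and -1.79 ± 0.38 in endoderm (adjusted p = 0.00256). The ectoderm call was lost with a transcript length trend removed (0.44, adjusted p = 0.247) or a GC trend removed (0.34, adjusted p = 0.396), and the endoderm call without endoderm replicate 1 (-1.47, adjusted p = 0.0613).

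LARS1, the leucine enzyme, is known as an intracellular leucine sensor of the mTORC1 pathway. Its level was 238 and 238 in hPSC, 279 and 349 in ectoderm, 112 and 141 in mesoderm and 46.4 and 61.1 in endoderm. The groups did not overlap, and endoderm was the lowest. LARS1 fell in endoderm (log2 fold change -2.15 ± 0.33, edgeR adjusted p = 0.000249) and in mesoderm (-0.91 ± 0.30, adjusted p = 0.0286). The mesoderm call held under 8 of 17 alternatives, and leaving out mesoderm replicate 1 gave -0.69 (adjusted p = 0.222). In ectoderm the difference was 0.40 ± 0.29 (adjusted p = 0.264).

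IARS1, the isoleucine enzyme, overlapped hPSC in ectoderm and fell in mesoderm, with 555 and 872 in hPSC, 543 and 654 in ectoderm, 299 and 324 in mesoderm and 499 and 376 in endoderm. Its mesoderm log2 fold change was -1.19 ± 0.32 (adjusted p = 0.00889), a call lost without either mesoderm replicate.

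Other subunits of the complex fell in ectoderm. MARS1, the methionine enzyme that charges initiator tRNA, had 821 and 1674 in hPSC, 288 and 299 in ectoderm, 408 and 315 in mesoderm and 817 and 969 in endoderm. It fell in ectoderm (-2.09 ± 0.35, edgeR adjusted p = 0.000268) and in mesoderm (-1.79 ± 0.35, adjusted p = 0.00124), and in endoderm it overlapped hPSC. KARS1, the lysine enzyme, had 269 and 461 in hPSC, 139 and 109 in ectoderm, 178 and 157 in mesoderm and 314 and 418 in endoderm. KARS1 fell in ectoderm (-1.55 ± 0.33, adjusted p = 0.00137) and in mesoderm (-1.12 ± 0.33, adjusted p = 0.0163), where the call was lost without hPSC replicate 2 or either mesoderm replicate. QARS1, the glutamine enzyme, fell in ectoderm only among the tests against hPSC, with a log2 fold change of -1.67 ± 0.30 (adjusted p = 0.000475).

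Of the scaffold genes, AIMP2 had 96.4 and 133 in hPSC, 30.8 and 23.6 in ectoderm, 34.0 and 42.7 in mesoderm and 81.7 and 96.4 in endoderm. It fell in ectoderm (-2.06 ± 0.32, edgeR adjusted p = 0.000142) and in mesoderm (-1.57 ± 0.34, adjusted p = 0.00221, and 0.0518 without mesoderm replicate 1). AIMP1 had few reads, from 4 to 44 per library, and passed in no layer, with log2 fold changes of 0.90 ± 0.42 in ectoderm, 0.18 ± 0.50 in mesoderm and -0.67 ± 0.60 in endoderm. Grouped by membership of the complex, a list chosen after these values were seen, 1 of 11 genes rose and 4 fell in ectoderm, against 0 and 11 of the 12 cytosolic synthetases outside it, beside 23.8% and 24.8% of all tested genes. In mesoderm 0 rose and 5 fell in the complex, against 0 and 9 outside it, beside 17% and 18.2%. For endoderm these counts were 0 and 3 against 2 and 3, beside 13.4% and 13.7%. The median log2 fold changes inside and outside the complex were -0.25 and -1.73 in ectoderm and -0.50 and -1.23 in mesoderm. In endoderm they were -0.54 and -0.24. A difference between these groups was not tested.

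**Figure D3:**
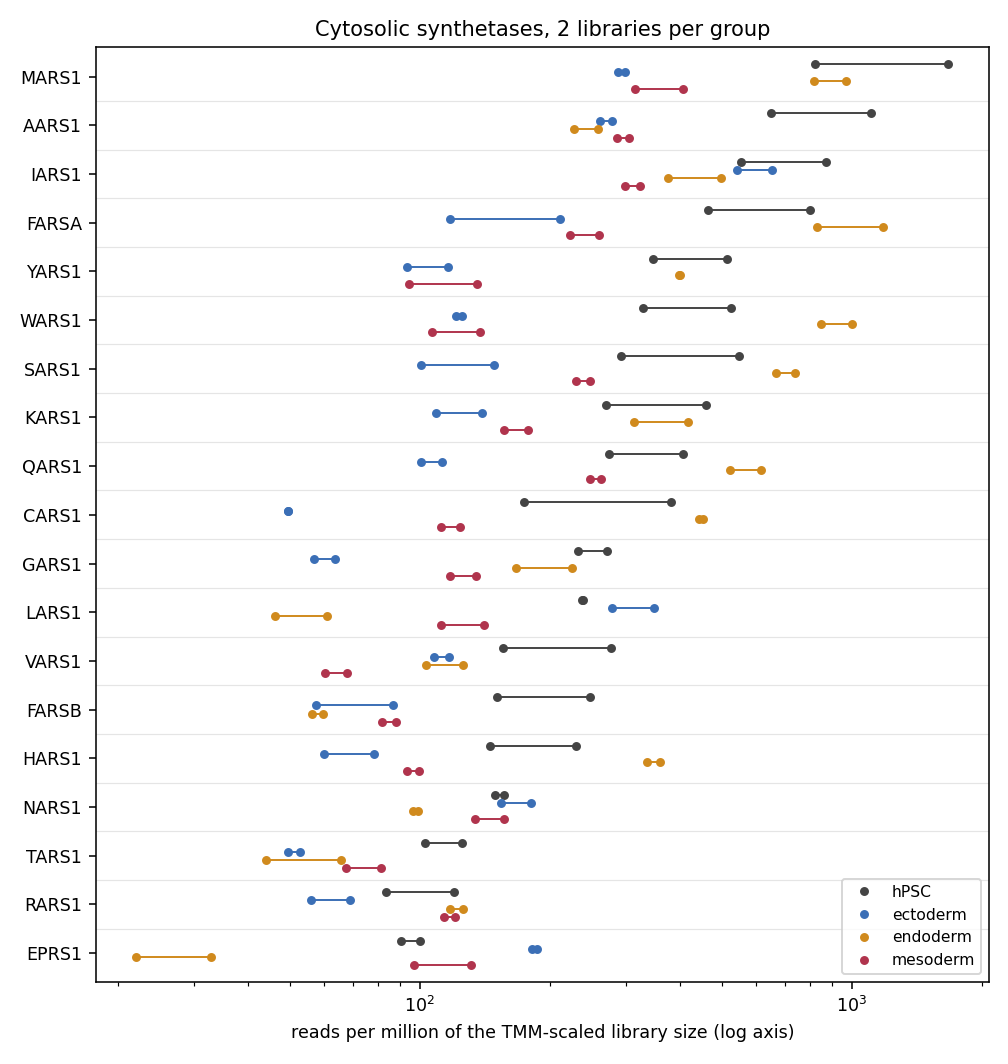
Level of cytosolic synthetases (x axis, CPM of the TMM-scaled library size, log axis) in the 2 libraries of each group, joined by a line. WARS1 and HARS1 are highest in endoderm, EPRS1 and LARS1 are lowest there, and hPSC repeats of MARS1 stand at 821 and 1674.

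Among cytosolic enzymes outside the complex, CARS1 had the largest fall in ectoderm. This cysteine enzyme had 175 and 381 in hPSC, 49.5 and 49.5 in ectoderm, 124 and 112 in mesoderm and 453 and 442 in endoderm. Ectoderm lay below all other libraries and endoderm above them. CARS1 fell in ectoderm (-2.48 ± 0.36, edgeR adjusted p = 8.94e-05), a call kept under all 17 alternatives, and in mesoderm (-1.23 ± 0.35, adjusted p = 0.0140), a call lost without hPSC replicate 2 (-0.57, adjusted p = 0.131) or either mesoderm replicate.

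GARS1, the glycine enzyme of both compartments, had 233 and 272 in hPSC, 63.6 and 56.8 in ectoderm, 117 and 135 in mesoderm and 225 and 167 in endoderm. It fell in ectoderm (-2.06 ± 0.30, edgeR adjusted p = 9.72e-05) and in mesoderm (-0.997 ± 0.30, adjusted p = 0.0181). The mesoderm call was lost without either mesoderm replicate. YARS1, the tyrosine enzyme, had 348 and 514 in hPSC, 116 and 93.4 in ectoderm, 136 and 94.3 in mesoderm and 397 and 400 in endoderm. Its ectoderm and mesoderm libraries lay below the others, with log2 fold changes of -2.03 ± 0.32 (edgeR adjusted p = 0.000153) and -1.90 ± 0.33 (adjusted p = 0.000407) that all 17 alternatives kept.

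WARS1, the tryptophan enzyme and a known interferon-induced gene, moved in opposite directions. It stood at 329 and 526 in hPSC, 121 and 125 in ectoderm, 138 and 107 in mesoderm and 1002 and 849 in endoderm. Endoderm lay above every other library and the other layers lay below hPSC. The log2 fold change was 1.11 ± 0.31 in endoderm (edgeR adjusted p = 0.0144), -1.79 ± 0.32 in ectoderm (adjusted p = 0.000383) and -1.80 ± 0.33 in mesoderm (adjusted p = 0.000623). Without endoderm replicate 1 the rise was 1.07 with an adjusted p of 0.0699, and the other 16 alternatives kept that call.

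HARS1, the histidine enzyme, had 146 and 229 in hPSC, 78.3 and 60.1 in ectoderm, 93.5 and 99.6 in mesoderm and 336 and 360 in endoderm. Endoderm lay above every other library, and ectoderm lay below every other. It rose in endoderm (0.89 ± 0.31, edgeR adjusted p = 0.0434) and fell in ectoderm (-1.43 ± 0.32, adjusted p = 0.00193) and in mesoderm (-0.95 ± 0.32, adjusted p = 0.0322). The endoderm call was close to the threshold and held under 10 of 17 alternatives, with 0.58 by library total (adjusted p = 0.111) and adjusted p = 0.0540 with the replicate block, and it was lost without hPSC replicate 1 or either endoderm replicate. The mesoderm call held under 5 of 17, and the ectoderm call was lost without ectoderm replicate 2 (adjusted p = 0.0549) or with the length trend removed (adjusted p = 0.0775).

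HARS1 and HARS2, its mitochondrial counterpart, are transcribed away from each other on chromosome 5. The starts of their most-read assembled transcripts lie at 140691370 and 140691431 on GRCh38, with 60 bases between. HARS2 had 40.0 and 50.5 in hPSC, 30.8 and 35.7 in ectoderm, 40.8 and 35.6 in mesoderm and 39.7 and 61.1 in endoderm. It passed in no layer, and its endoderm log2 fold change was 0.16 ± 0.37 (edgeR adjusted p = 0.801).

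FARSA and FARSB encode the α and β subunits of 1 phenylalanine enzyme. FARSA had 464 and 802 in hPSC, 211 and 118 in ectoderm, 260 and 222 in mesoderm and 830 and 1183 in endoderm. FARSB had 151 and 248 in hPSC, 87.0 and 57.7 in ectoderm, 88.4 and 81.8 in mesoderm and 59.6 and 56.4 in endoderm. Both subunits were below hPSC in ectoderm and mesoderm, but in endoderm FARSA lay above hPSC and FARSB below it. In endoderm FARSB fell (log2 fold change -1.78 ± 0.36, edgeR adjusted p = 0.00198), while the log2 fold change of FARSA was 0.67 ± 0.36 (adjusted p = 0.177). A difference between 2 genes was not tested.

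AARS1, the alanine enzyme, passed as lower in each layer. It had 651 and 1105 in hPSC, 261 and 279 in ectoderm, 306 and 286 in mesoderm and 258 and 228 in endoderm. Every layer library lay below both hPSC libraries. The log2 fold change was -1.70 ± 0.31 in ectoderm (edgeR adjusted p = 0.000497), -1.57 ± 0.31 in mesoderm (adjusted p = 0.00139) and -1.85 ± 0.32 in endoderm (adjusted p = 0.000617), and all 17 alternatives kept each of them.

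FARSB and TARS2 passed as lower in each layer too. For FARSB the log2 fold change was -1.45 ± 0.33 in ectoderm (edgeR adjusted p = 0.00205, and 0.0704 without ectoderm replicate 2) and -1.22 ± 0.34 in mesoderm (adjusted p = 0.0110), where it was lost without either mesoderm replicate (adjusted p = 0.0821 and 0.109). TARS2, the mitochondrial threonine enzyme, had 153 and 232 in hPSC, 81.0 and 65.8 in ectoderm, 85.0 and 67.6 in mesoderm and 53.0 and 44.7 in endoderm. It fell in ectoderm (-1.38 ± 0.31, adjusted p = 0.00205, and 0.0607 without ectoderm replicate 2), in endoderm (-1.97 ± 0.35, adjusted p = 0.000716) and in mesoderm (-1.33 ± 0.32, adjusted p = 0.00526, and 0.0889 without mesoderm replicate 2).

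VARS1, the valine enzyme, was lowest in mesoderm. It had 277 and 156 in hPSC, 108 and 117 in ectoderm, 68.0 and 60.5 in mesoderm and 126 and 103 in endoderm, and it had 152 and 74 raw reads in the 2 hPSC libraries. It fell in mesoderm (-1.75 ± 0.34, edgeR adjusted p = 0.00117), under all 17 alternatives, and in ectoderm (-0.95 ± 0.32, adjusted p = 0.0217), under 5 of 17. Without hPSC replicate 1 or either ectoderm replicate the ectoderm call was lost. TARS1, the cytosolic threonine enzyme, fell in ectoderm (-1.16 ± 0.30, adjusted p = 0.00546) and in endoderm (-1.06 ± 0.33, adjusted p = 0.0268). Its ectoderm call was lost without either ectoderm replicate and its endoderm call held under 8 of 17 alternatives, with -0.74 (adjusted p = 0.251) without endoderm replicate 1.

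Mitochondrial enzymes had fewer reads, and no mitochondrial member rose in a layer. MARS2, the mitochondrial methionine enzyme, had 20.0 and 37.9 in hPSC, 6.02 and 15.4 in ectoderm, 0 and 8.90 in mesoderm and 13.2 and 11.8 in endoderm. Its mesoderm fold rests on 0 and 5 reads, and a count of 0 allows up to 5.65 CPM of the library total there. It fell in mesoderm (-2.66 ± 0.80, edgeR adjusted p = 0.0180), but without mesoderm replicate 1 the value was -1.58 (adjusted p = 0.177) and without hPSC replicate 2 it was -2.17 (adjusted p = 0.0629). Its ectoderm call (-1.44 ± 0.58, adjusted p = 0.0498) held under 3 of 17 alternatives.

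SARS2, the mitochondrial serine enzyme, had 107 and 139 in hPSC, 33.5 and 34.9 in ectoderm, 34.0 and 46.3 in mesoderm and 68.4 and 101 in endoderm. SARS2 fell in ectoderm (-1.84 ± 0.32, edgeR adjusted p = 0.000307) and in mesoderm (-1.61 ± 0.34, adjusted p = 0.00194, and 0.0522 without mesoderm replicate 1). PARS2, YARS2 and VARS2 were the other mitochondrial members lower in ectoderm, with log2 fold changes of -1.72, -1.07 and -0.86. LARS2, EARS2 and PARS2 were the others lower in mesoderm, at -1.61, -1.13 and -1.03. The ectoderm calls of YARS2 and VARS2 held under 8 and 5 of 17 alternatives and the mesoderm call of PARS2 under 4. The mesoderm call of LARS2 was lost without mesoderm replicate 1, and that of EARS2 without hPSC replicate 2 or either mesoderm replicate.

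IARS2, the mitochondrial isoleucine enzyme, fell in endoderm alone among the tests against hPSC. It had 85.5 and 67.4 in hPSC, 95.7 and 113 in ectoderm, 86.7 and 90.7 in mesoderm and 28.7 and 16.5 in endoderm. The endoderm libraries lay below all others, with a log2 fold change of -1.75 ± 0.39 (edgeR adjusted p = 0.00393, and 0.0890 without endoderm replicate 2). NARS2, the mitochondrial asparagine enzyme, was also lower there (-1.19 ± 0.33, adjusted p = 0.0143), a call lost without either endoderm replicate.

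**Figure D4:**
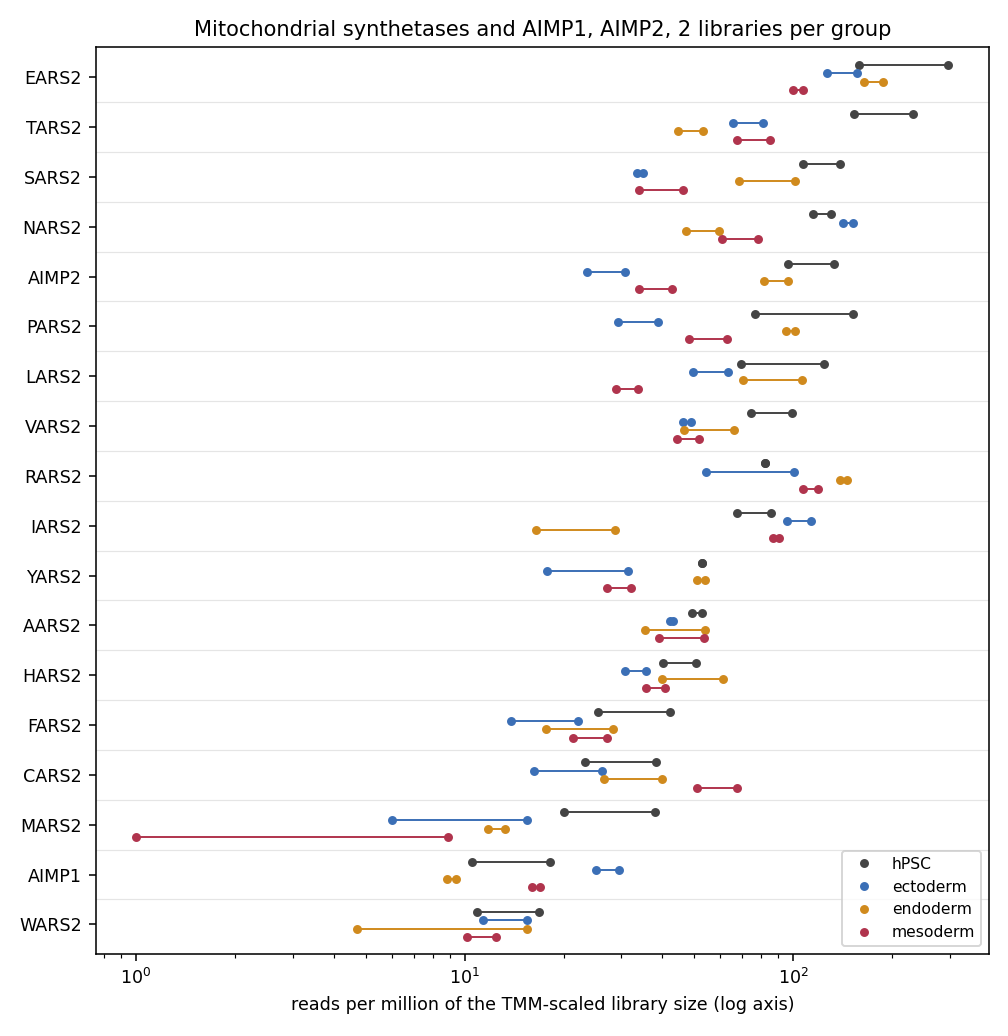
Level of mitochondrial synthetases and of AIMP1 and AIMP2 (x axis, CPM of the TMM-scaled library size, log axis) in the 2 libraries of each group, joined by a line; the mesoderm library with 0 reads of MARS2 is drawn at 1. IARS2 stands apart in endoderm, at 28.7 and 16.5.

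NARS1, RARS1, AARS2, CARS2, FARS2, HARS2, RARS2 and AIMP1 were among the tested members that passed in no layer against hPSC. NARS1, the asparagine enzyme, had 156 and 149 in hPSC, 155 and 181 in ectoderm, 134 and 157 in mesoderm and 99.4 and 96.4 in endoderm. Its endoderm libraries lay below the others, at a log2 fold change of -0.64 ± 0.30 (edgeR adjusted p = 0.131). The highest estimate among the mitochondrial members of this set was that of CARS2 in mesoderm, 0.93 ± 0.40 (adjusted p = 0.0846), with 38.2 and 23.2 in hPSC against 51.0 and 67.6 in mesoderm. For proline the cytosolic and the mitochondrial gene were called in opposite directions in ectoderm: EPRS1 rose, as given above, and PARS2 fell. PARS2 had 76.4 and 152 in hPSC, 38.8 and 29.2 in ectoderm, 62.9 and 48.0 in mesoderm and 94.9 and 101 in endoderm, and its ectoderm log2 fold change was -1.72 ± 0.35 (adjusted p = 0.00113). The EPRS1 call was lost with the length or GC trend removed, and a difference between the 2 genes was not tested.

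Compared directly, 60.5% of tested members were called between ectoderm and endoderm, 39.5% between mesoderm and endoderm and 23.7% between ectoderm and mesoderm. In each pair this was below the share of all tested genes, at 63.1%, 47.1% and 35.5% in the same order. Between ectoderm and endoderm 7 members were higher in ectoderm and 16 lower, beside 33.1% and 29.9% of all tested genes. Between ectoderm and mesoderm 3 were higher in ectoderm and 6 lower, beside 18.1% and 17.3%, and between mesoderm and endoderm 3 were higher in mesoderm and 12 lower, beside 23.9% and 23.2%. Those higher in ectoderm than in endoderm included EPRS1, LARS1, IARS2, AIMP1, NARS2 and NARS1. Those furthest below were CARS1 (-3.17 ± 0.37), WARS1 (-2.91 ± 0.33), FARSA (-2.61 ± 0.37), SARS1 (-2.50 ± 0.35) and QARS1 (-2.42 ± 0.31), with edgeR adjusted p from 3.73e-06 to 3.03e-05.

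With the library total as the scale these splits became 12 higher and 11 lower between ectoderm and endoderm, 6 and 4 between ectoderm and mesoderm, and 12 and 7 between mesoderm and endoderm. The median of all tested genes then stood at 0.94 between ectoderm and endoderm, 0.21 between ectoderm and mesoderm and 0.72 between mesoderm and endoderm. The ectoderm and mesoderm count is sensitive to single libraries: it was 14 without hPSC replicate 1, 4 and 3 without ectoderm replicates 1 and 2, and 3 and 2 without mesoderm replicates 1 and 2, and 5 with the length trend removed.

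GC content and transcript length moved with the calls. Members lower in ectoderm than in hPSC had a median GC of 53.5%, and those not called 43.9%. Over all tested genes the medians were 55.7% for lower, 49.8% for not called and 41.2% for higher genes. Median transcript lengths were 2583 bases for the lower members and 3273 for those not called. Over all tested genes they were 2277 and 3883 bases in the same order. In endoderm the order was the other way, at 43.6% for lower and 52.4% for the 2 higher members, and in mesoderm lower members had 52.5% and those not called 44.3%. The members higher in ectoderm than in endoderm had a median GC of 43.5% (AIMP1 had no value), and those lower 52.8%. With a GC trend removed from each library, 0 members were higher and 19 lower in ectoderm, 1 and 21 in mesoderm, and 2 and 7 in endoderm, of 37 tested. With a length trend removed they were 0 and 20 in ectoderm, 0 and 19 in mesoderm, and 2 and 9 in endoderm.

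Within member genes, the use of transcripts was compared for 12 members against hPSC. None passed in ectoderm, endoderm or mesoderm (diffSpliceDGE of edgeR), where 2.58%, 2.12% and 2.99% of 2638 genes did. At an unadjusted p under 0.05 there were 2 members in ectoderm (MARS1 and WARS1), 1 in endoderm (WARS1) and 0 in mesoderm. In mesoderm 1 member passed without hPSC replicate 1 (VARS2, adjusted p = 0.0242) and 1 without hPSC replicate 2 (LARS1, adjusted p = 0.0422). From 94.2% to 97.3% of member reads in a library came from transcripts that match the reference.

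WARS1 is known to have an upstream first exon and a downstream one, the latter linked to interferon, and a shorter protein made by skipping an exon. Transcripts that began downstream held 30.4% and 26.0% of WARS1 reads in hPSC, 10.5% and 13.6% in ectoderm, 25.9% and 16.7% in mesoderm and 47.8% and 39.9% in endoderm. The endoderm libraries had the highest shares and the ectoderm libraries the lowest. Reads with the 430-residue frame were 28.2% and 30.0% in hPSC, 16.6% and 14.9% in ectoderm, 24.7% and 15.0% in mesoderm and 34.1% and 32.7% in endoderm. The adjusted p for WARS1 transcript use was 0.373 in ectoderm and 0.415 in endoderm (diffSpliceDGE).

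**Figure D5:**
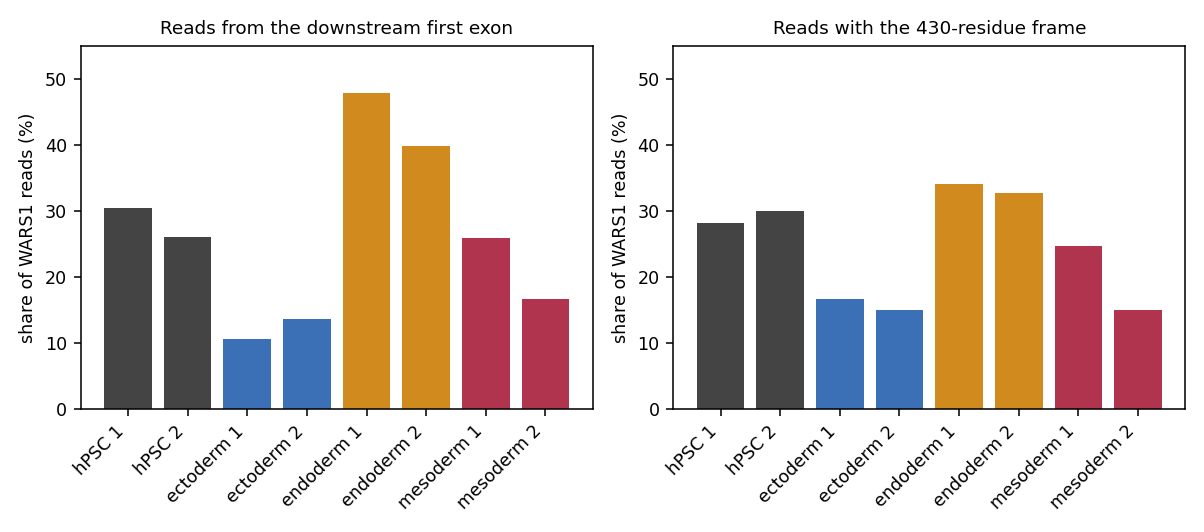
Share of WARS1 reads (y axis, %) in each library from transcripts that begin at the downstream first exon (left) and from those with the 430-residue reading frame (right). The endoderm bars are the highest in both panels, at 47.8% and 39.9% on the left.

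KARS1 supplies both compartments by alternative splicing, the longer frame carrying the mitochondrial targeting sequence. The transcript with the longer frame of 625 residues held 33.1% and 34.7% of KARS1 reads in hPSC, 46.2% and 38.1% in ectoderm, 29.5% and 29.5% in mesoderm and 30.3% and 30.3% in endoderm. The transcript with 597 residues held nearly all the rest. In SARS2 an assembled transcript that contains a reference transcript and extends it held 6.78% and 7.58% of reads in hPSC, 26.0% and 41.9% in ectoderm, 5.00% and 15.4% in mesoderm and 9.68% and 18.6% in endoderm. For VARS2, the reference transcript with 1093 residues held 34.6% and 27.6% of reads in mesoderm and at most 4.76% in any other library, on 9 and 8 reads in mesoderm. SARS2 and VARS2 were not among the 12 members whose transcript use was tested on all libraries, so their shares are given as a description. KARS1 was tested and passed in no layer (unadjusted p = 0.593 in ectoderm).

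Other genes of tRNA charging and translation were described by lists chosen with earlier results of these data known. Of 18 tested genes of the amino acid response, 2 rose and 16 fell in ectoderm, 2 rose and 6 fell in endoderm, and 0 rose and 11 fell in mesoderm. Their median log2 fold change was -2.37 in ectoderm, -1.83 in mesoderm and -0.67 in endoderm. Beside this and the following lists, 23.8% of all tested genes rose and 24.8% fell in ectoderm, 17% and 18.2% in mesoderm, and 13.4% and 13.7% in endoderm. CHAC1, a glutathione-degrading target of ATF4, had 66 and 143 reads in hPSC, 4 and 2 in ectoderm, 2 and 4 in mesoderm and 33 and 23 in endoderm, with log2 fold changes of -6.47 ± 0.55 in ectoderm (edgeR adjusted p = 6.46e-07) and -5.28 ± 0.57 in mesoderm (adjusted p = 5.47e-06). ATF4 itself had a log2 fold change of -3.00 ± 0.37 in ectoderm (adjusted p = 2.22e-05), 0.82 ± 0.31 in endoderm (adjusted p = 0.0599) and -1.09 ± 0.35 in mesoderm (adjusted p = 0.0233).

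Not all of that list moved down. SLC3A2 and SLC7A5, which together form an exchanger that imports leucine and other large amino acids, rose in endoderm by 2.25 ± 0.35 (edgeR adjusted p = 0.000242) and 2.40 ± 0.47 (adjusted p = 0.00167), although SLC7A5 had 416 and 103 reads in the hPSC libraries. Both fell in ectoderm. Among the 7 cytosolic members with the promoter core shown above, 5 fell in ectoderm, 5 in mesoderm and 2 in endoderm. Of the 9 matched cytosolic members without it, 7 fell in ectoderm, 5 in mesoderm and 2 in endoderm. Without the core 1 rose in ectoderm and 2 in endoderm, and with it none rose. The median log2 fold changes with and without the core were -1.70 and -1.55 in ectoderm and -1.19 and -0.95 in mesoderm. In endoderm they were -0.64 and 0.67. A difference between members with and without the core was not tested.

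Of 9 tested genes of cytosolic elongation and termination, 1 rose and 6 fell in ectoderm, 1 rose and 2 fell in endoderm, and 4 fell in mesoderm. EIF5A, which helps ribosomes past proline stretches, had a log2 fold change of -2.24 ± 0.33 in ectoderm (edgeR adjusted p = 8.77e-05). Among 10 accessory genes of tRNA charging, 4 fell in ectoderm, 3 in mesoderm and 2 in endoderm, and none rose. DTD1, which removes D-amino acids from tRNA, passed as lower in each layer (-1.93 in ectoderm, -2.01 in mesoderm and -2.39 in endoderm). Of 19 genes that make tRNA, 2 rose and 8 fell in ectoderm, 2 rose and 1 fell in endoderm, and 9 fell in mesoderm. POLR3G, the RNA polymerase III subunit typical of pluripotent cells, had 16 and 20 reads in hPSC, 18 and 12 in ectoderm, 0 and 2 in mesoderm and 0 and 0 in endoderm. These reads are not scaled. The TMM-scaled library sizes were 549530 and 475008 in hPSC and 1.49e+06 and 1.23e+06 in ectoderm, so the ectoderm reads stand for a lower level.

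On the mitochondrial side, 74 ribosomal protein genes were tested, of which 3 rose and 47 fell in ectoderm, 4 rose and 15 fell in endoderm, and 36 fell in mesoderm. Their median log2 fold change was -1.14 in ectoderm, -1.02 in mesoderm and -0.26 in endoderm. Of 10 mitochondrial translation factors, 1 rose and 2 fell in ectoderm, none passed in endoderm and 1 fell in mesoderm, which is at or below the shares over all tested genes. TUFM, the elongation factor that brings charged tRNA to the mitochondrial ribosome, had log2 fold changes of -3.27 ± 0.37 in ectoderm (edgeR adjusted p = 1.17e-05) and -1.69 ± 0.35 in mesoderm (adjusted p = 0.00179). Of 4 tested genes of the MYC family, 1 fell in ectoderm, 2 in mesoderm and 1 in endoderm, and none rose. MYC, a transcription factor known to raise genes of translation, had 114 and 118 reads in hPSC and 31 and 26 in ectoderm. It had 22 and 30 reads in mesoderm and 28 and 20 in endoderm. Its log2 fold changes were -3.43 ± 0.33 in ectoderm (edgeR adjusted p = 1.90e-06), -2.33 ± 0.32 in mesoderm (adjusted p = 6.37e-05) and -2.06 ± 0.33 in endoderm (adjusted p = 0.000283). The part of MYC in the results of the members was not tested.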

How the data were processed

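The authors deposited whole read counts per assembled transcript, and the deposited endoderm columns, entered here under expected counts, are whole raw counts too, so nothing was rounded. The deposited CPM tables were used only to check the counts. Per the submitters' processing notes, minimap2, StringTie and GRCh38 (hg38) were used. The counter, its handling of strand and of similar copies, and the annotation release are not given in the sources used here. Positions come from the deposited assembly, and 16 transcripts (303 reads) listed under a member without a gene name were left out of the main values.

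Counts were summed per gene and tested with edgeR 4.0.16 (R 4.3.3): TMM, the low-count filter filterByExpr (groups given, minimum count 10), and 1 two-sided quasi-likelihood fit over 8 libraries without a block, adjusted by Benjamini-Hochberg over all genes tested. An SE is the log2 fold change divided by the square root of F. Transcript use was tested with diffSpliceDGE on genes of at least 2 tested transcripts. DESeq2 1.42.0, other scalings, filters, transcript sets, GC and length trends and left-out libraries were alternatives. The tests were run on simulated data first. Members and lists were chosen with earlier results of these data known. The members named in full were, per layer, up to 5 rising and 5 falling most among those past the threshold, those passing in each layer or in opposite directions, GARS1, KARS1, HARS1 and HARS2, and further members chosen after their values were seen. Genes named from other lists were among the 4 largest called changes of their list or were chosen after their values were seen. The mitochondrial ribosomal list holds symbols of MRPL or MRPS with a number. Depth was 503840 to 1180888 reads per library, and a count of 0 allows up to 3 reads. Some members enter the counts and sums but are not reported here by name.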

Additional observations from a re-analysis of the deposited data

Results flagged for a closer look

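The contrast of 1 layer with another is given for the 3 members called in opposite directions against hPSC in 2 layers. It tests the difference itself, but these members were picked by calls of the same fit. A difference between those layers was therefore likely beforehand and gives no separate support. In all, 23 members were called between ectoderm and endoderm. EPRS1 was higher in ectoderm than in endoderm by 2.74 ± 0.36 on the log2 scale (edgeR adjusted p = 1.32e-05), after a rise against hPSC in ectoderm and a fall in endoderm. HARS1 was lower in ectoderm than in endoderm by a log2 difference of -2.32 ± 0.32 (adjusted p = 2.03e-05) and in mesoderm than in endoderm by -1.85 ± 0.32 (adjusted p = 0.000339). For WARS1 these differences were -2.91 ± 0.33 (adjusted p = 3.73e-06) and -2.92 ± 0.33 (adjusted p = 9.12e-06). All 17 alternatives kept these 5 calls. The libraries of the layers compared did not overlap in any of them.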

How the results depend on the processing

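The sign of the difference from hPSC held for the mitochondrial share and the summed levels under the alternatives run, while sizes moved. For the endoderm cytosolic sum the log2 ratio was only -0.024 on the TMM scale. There that sum was 6897 and 7328 in the endoderm libraries, between the hPSC repeats at 5803 and 9008, so its direction was not clear on that scale. For the sums, single libraries were left out on the library total scale only. The share minus hPSC was 6.22 percentage points in ectoderm, 4.12 with reference-matching transcripts only and 11.1 with members of 1500 to 4000 bases. In endoderm it was -3.75, and -5.44 with those lengths, and in mesoderm 5.19, 3.85 and 6.39. On the TMM scale the log2 ratio of the cytosolic sum was -1.18, -0.024 and -1.15 in ectoderm, endoderm and mesoderm, and that of the mitochondrial sum -0.61, -0.46 and -0.66 in the same order. For members of 1500 to 4000 bases the cytosolic ratio was -1.18 in ectoderm and -0.18 in endoderm and the mitochondrial ratio -0.33 in mesoderm. With reference-matching transcripts the mitochondrial ratio was -0.33 in ectoderm, -0.53 in mesoderm and -0.91 in endoderm.

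The number of members called in endoderm was 17 by library total, chosen after seeing the data, and 7 with DESeq2, against 11. Between ectoderm and mesoderm it was 5 with the length trend removed, against 9. The cause was not tested. With a GC trend removed, FARSB (-0.96) and VARS1 (0.89) reversed between ectoderm and endoderm, having had estimates of 0.32 and -0.03. Leaving out single libraries gave 14 to 26 members in ectoderm, 5 to 16 in endoderm, 6 to 25 in mesoderm, 2 to 14 between ectoderm and mesoderm, and 0 to 1 member with a change of transcript use in mesoderm.

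The deviations of libraries with the same replicate number had correlations of -0.0341 to 0.151, the highest between hPSC and endoderm. Low correlations cannot show that such libraries shared no culture or batch, and the labels do not say what a number shares. Whether the numbers pair the libraries was therefore not tested. With the replicate block, 22, 10 and 19 members were called in ectoderm, endoderm and mesoderm, and 23, 8 and 15 between ectoderm and endoderm, ectoderm and mesoderm, and mesoderm and endoderm. Depth limits members with few reads in a group, such as AIMP1 in endoderm (4 and 4 reads), and the endoderm calls of EPRS1 (10 and 14 reads) and IARS2 (13 and 7 reads) rest on few reads.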
